A study of Mus musculus with 15 samples.

Results

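Guidance genes of 4 ligand and receptor systems were followed across sorted glial and progenitor cells of the mouse brain: the ephrins with their Eph receptors, the semaphorins with neuropilins and plexins, the slits with Robo receptors, and the netrins with Unc5 receptors. They were chosen by symbol alone, as every row of the deposited count table named for an ephrin, an Eph receptor, a semaphorin of classes 3 to 7, a plexin, a neuropilin, a slit, a Robo receptor, a netrin of the Ntn1, Ntn3, Ntn4 and Ntn5 set, or an Unc5 receptor. The symbols matched 68 of the 32763 rows, of which 32735 name a gene: 22 ephrins and Eph receptors, 31 semaphorins, neuropilins and plexins, 7 slits and Robo receptors, and 8 netrins and Unc5 receptors. Of the 68, 54 passed the filter on low counts and were tested, 14 did not, and 2 of those 14 (Epha6 and Epha8) had no count in any of the 15 libraries.

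Ephrins are membrane-anchored ligands, held by a lipid anchor in class A and by a transmembrane segment in class B, and Eph receptors are tyrosine kinases that signal on contact while the ligand signals back into its own cell. Secreted class 3 semaphorins bind neuropilins, which pair with A-type plexins, whereas most semaphorins of the other classes sit in the membrane and bind plexins directly. Slits are secreted and repel cells that carry Robo receptors. Netrins attract through Dcc and repel through Unc5 receptors. In the ventricular-subventricular zone (V-SVZ), the layer of neural stem cells along the lateral ventricle, these systems are known for steering the chains of young neurons that leave for the olfactory bulb and for limiting or promoting progenitor division.

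The 15 libraries were bulk RNA-seq of cells sorted from hGFAP::GFP mice, in which the human GFAP promoter drives green fluorescent protein in astrocytes and in stem cells with astrocyte features. Each of 5 groups had 3 libraries from animals of both sexes pooled together, and no other allele or treatment is given. CTX cells were GFP+ astrocytes of the cortex, for which no other surface marker is given. The 4 other groups were GFP+ cells of the V-SVZ, told apart by surface staining for PDGFRbeta, CD133 and the EGF receptor (EGFR), and all were CD24-: GPB+ cells were PDGFRbeta+ CD133- EGFR-, GCPB+ cells PDGFRbeta+ CD133+ EGFR-, GCEPB+ cells PDGFRbeta+ CD133+ EGFR+, and GCEPB- cells PDGFRbeta- CD133+ EGFR+. CD133 and PDGFRbeta with no EGFR are markers used for quiescent stem cells, EGFR for activated stem cells and, without the stem cell markers, for their dividing progeny. The age of the mice was not given in the sources used here. The labels do not state whether a group's 3 libraries were prepared from different mice, and p-values therefore reflect library-to-library spread that could be technical.

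Counts assigned to named genes ranged from 12431567 to 33592810 per library, and 16666 to 19193 genes had at least 1 count. Levels are counts scaled to a common library total (CPM) after TMM scaling, in which 3 counts correspond to 0.102 to 0.246 CPM. Levels of different genes are compared only in the authors' FPKM, which are scaled to transcript length. The labels were checked against 10 lists of 10 marker genes. Astrocyte markers summed to 41400 to 53300 CPM in the CTX, GPB+ and GCPB+ libraries, 9330 to 15500 in GCEPB+ and 3700 to 4140 in GCEPB-. Markers of activated stem cells and of their proliferating transit-amplifying progeny ran from 294 to 357 CPM in the former 3 groups, from 4720 to 5510 in GCEPB+ and from 8800 to 10100 in GCEPB-. This list includes Egfr, at 105 to 210 CPM in the former 3 groups, 455 to 602 in GCEPB+ and 773 to 852 in GCEPB-. The neuroblast list includes Cd24a. Both encode proteins used in the sorting, so these 2 lists are not fully independent of it. Markers of other cell types were also detected and differed between groups, and those of mature oligodendrocytes summed to 241 to 791 CPM in cortical astrocytes. In the V-SVZ they reached 624 to 1040 for GPB+, 1430 to 2020 for GCPB+, 309 to 1190 for GCEPB+ and 128 to 184 for GCEPB-. In bulk samples such as these, fewer cells of a type and less RNA per cell cannot be told apart.

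Across the 5 groups, 39 of the 54 tested guidance genes differed at an adjusted p under 0.05 (edgeR's quasi-likelihood test of any difference), against 54.8% of all 16302 genes tested. By system these were 10 of 16 ephrins and Eph receptors, 20 of 26 semaphorins, neuropilins and plexins, 4 of 5 slits and Robo receptors, and 5 of 7 netrins and Unc5 receptors. The 15 tested genes that did not pass were Efna1, Efna4, Efnb1, Epha7, Ephb4, Ephb6, Sema3b, Sema4c, Sema4g, Sema6c, Plxnb3, Plxnd1, Robo4, Ntn4 and Unc5d. A gene can pass the filter on low counts through the group in which it is high, so the share among tested genes describes those genes and not all 68.

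**Figure D1:**
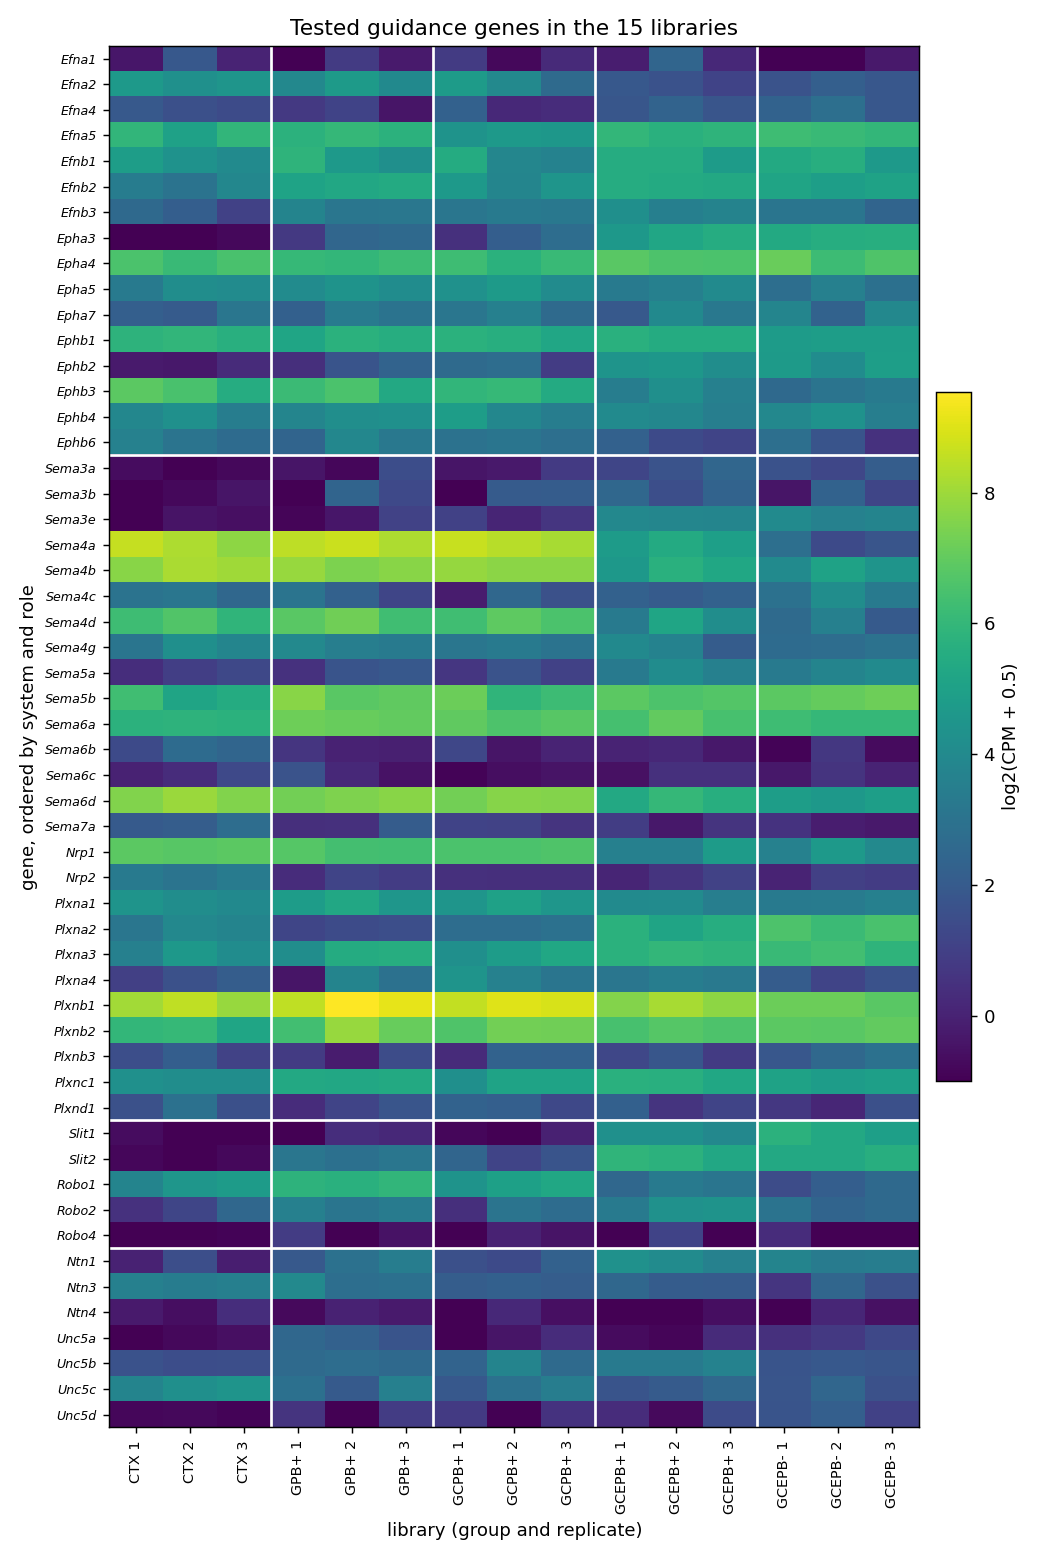
Heat map of the 54 tested guidance genes (rows, ordered by system and role) in the 15 libraries (columns, 3 per group), coloured by log2(CPM + 0.5). Sema4a, Sema4b and Sema6d are bright in CTX, GPB+ and GCPB+ and darker in both EGFR+ groups, while Slit1, Slit2, Epha3 and Ephb2 show the opposite order.

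By length-scaled level, class 4 semaphorins led the whole collection in CTX and the EGFR- V-SVZ groups. Their 6 genes summed to 131 ± 16.8 FPKM (SD, n = 3 libraries) in CTX, 134 ± 20.3 in GPB+ and 128 ± 14.8 in GCPB+, but to 25.4 ± 6.9 in GCEPB+ and 12.9 ± 4.65 in GCEPB-. Sema4a was the highest single gene in CTX, GPB+ and GCPB+, at 63.7 ± 20.1, 74.8 ± 14.4 and 71.8 ± 13.4 FPKM. In GCEPB+ the highest was Plxnb1, a receptor for class 4 semaphorins, at 21 ± 4.49 FPKM, and in GCEPB- it was Sema5b, a transmembrane semaphorin with thrombospondin repeats, at 20.9 ± 1.57. Of the neuropilins, Nrp1 averaged 2.92 and 3.04 FPKM in GCEPB+ and GCEPB-, against 15.3 for CTX, 11.4 for GPB+ and 11.8 for GCPB+, whereas Nrp2 averaged 1.8 FPKM in CTX and between 0.237 and 0.327 in the V-SVZ groups. The 3 slits ran the other way, from 0.0093 ± 0.0124 FPKM in CTX through 1.13 ± 0.365 in GPB+ and 0.566 ± 0.446 in GCPB+ to 8.53 ± 1.71 in GCEPB+ and 11.7 ± 1.18 in GCEPB-. EphA receptors summed to 13.5 ± 1.84, 12.6 ± 1.43 and 12.4 ± 0.375 FPKM in CTX, GPB+ and GCPB+ and to 25 ± 2.2 and 27.1 ± 3.42 in GCEPB+ and GCEPB-. Plexins as a group lay close together in the V-SVZ, between 48.7 ± 3.04 FPKM in GCEPB- and 66.8 ± 23.3 in GPB+, with 34.1 ± 6.61 in CTX. These sums are descriptions and carry no test.

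The comparison of GCEPB+ with GCPB+ cells, which share PDGFRbeta and CD133 and differ in EGFR, held the most changes between neighbouring V-SVZ groups. Values in brackets after a gene are its log2 fold change with the standard error, and further values after a left-out library are adjusted p. Slit1, Slit2, Sema3e, Epha3, Sema5a and Plxna2 were higher in the EGFR+ cells, and Sema4a, Efna2, Sema4b, Nrp1, Sema4d and Ephb3 were lower. In all, 14 guidance genes were higher and 10 lower, against 18.1% of all tested genes higher and 18.0% lower (36.1% in either direction), and the libraries of the 2 groups did not overlap for 28 of the 54, against 46.9% of all tested genes. The median log2 difference was 0.26 over the 54 genes and 0.11 over all genes. With limma on log2(FPKM + 1) the higher share of calls among all genes was 67.3%, where the count test gave 50.2%, and on log2(FPKM + 0.1) the median log2 difference of all genes was 0.22 above that of the count test. Of the 24 calls, 19 were past the threshold under each of 13 alternative settings. Epha4 (0.62 ± 0.22, edgeR adjusted p = 0.0379) was lost without GCPB+ replicate 2 (0.162) or 3 (0.068) and on omitting GCEPB+ replicate 1 (0.119), 2 (0.0544) or 3 (0.0556). Plxnc1 (0.67 ± 0.23, edgeR adjusted p = 0.0326) was lost without GCPB+ replicate 1 (0.151) and on omitting GCEPB+ replicate 1 (0.0993) or 2 (0.0854). Plxna3 (1.02 ± 0.35, edgeR adjusted p = 0.029) was lost without GCPB+ replicate 1 (0.123) or 2 (0.0771) and on omitting GCEPB+ replicate 2 (0.0727) or 3 (0.0585). Robo2 (1.76 ± 0.65, edgeR adjusted p = 0.0432) was lost without GCPB+ replicate 1 (0.109) or 3 (0.0667) and on omitting GCEPB+ replicate 2 (0.0971) or 3 (0.114). Plxna1 (-0.84 ± 0.27, edgeR adjusted p = 0.0236) was lost without GCPB+ replicate 2 (0.114) or GCEPB+ replicate 3 (0.104). It was also lost with limma on log2(FPKM + 1) (adjusted p = 0.181) and log2(FPKM + 0.1) (0.21). On the compared groups alone edgeR lost Plxnc1 (adjusted p = 0.118), Robo2 (0.0706) and Epha4 (0.053), and without the filter it lost Plxnc1 (0.0662) and Epha4 (0.0586). With the replicate number as a block, edgeR also called Sema3a (2.67, adjusted p = 0.0197), Efnb1 (0.91, 0.0258) and Ephb6 (-1.53, 0.0371), none of which passed in the fit of all 15 libraries without the block. Sema3a and Ephb6 also passed without a block in edgeR on the compared groups alone (0.0487 and 0.0334) and in DESeq2 (0.0498 and 0.0398). Neuroblast markers summed to 17 to 46.4 CPM in GCPB+ and 296 to 493 in GCEPB+, and oligodendrocyte markers to 1430 to 2020 and 309 to 1190, with none of either list's 10 genes at 0 in all 3 libraries of either group. Ependymal markers were at 72.5 to 90.4 CPM in GCPB+ and 28.1 to 65.1 in GCEPB+, but the list did not move as one. Rarres2 was lower in GCEPB+ (14.2, 16.4 and 16.9 CPM, against 68.9, 71.6 and 52). Dynlrb2 was higher there (2.59, 3.54 and 4.6 CPM, against 0.663, 0.738 and 1.87). Rsph1 was at 5.37, 10.6 and 14.4 CPM in GCEPB+ and 6.74, 3.28 and 4.1 in GCPB+. Pericyte and mural markers were at 15.2 to 21.8 CPM in GCPB+ and 3.51 to 10.5 in GCEPB+, with Kcnj8, Vtn, Higd1b and Ndufa4l2 at 0 in GCEPB+. The part of these markers in the differences was not tested.

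The other comparison of EGFR+ cells set GCEPB+ against GCEPB-, which differ in PDGFRbeta. Sema4a (3.08 ± 0.36, edgeR adjusted p = 1.64e-05), Unc5b (1.82 ± 0.39, edgeR adjusted p = 0.00515) and Sema6d (0.89 ± 0.20, edgeR adjusted p = 0.0059) were higher in GCEPB+, and all of these calls were kept under each of 13 alternative settings. In all, 6 guidance genes were higher and 1 lower, against 9.28% and 1.85% of all tested genes (11.1% in either direction), and 21 of the 54 had libraries that did not overlap, against 28.1% of all tested genes. The median log2 difference was 0.23 over the 54 genes and 0.03 over all genes. With limma on log2(FPKM + 1) the split was 5 higher and 2 lower among guidance genes and 1349 of 2073 higher among all genes, where the count test had 1513 of 1814. A count fit on the 6 libraries of these groups alone gave 7 higher and 3 lower guidance genes. The count of higher genes was 3 without GCEPB+ replicate 2, GCEPB- replicate 1 or GCEPB- replicate 3. Ephb1 (0.71 ± 0.20, edgeR adjusted p = 0.0254) was lost when any 1 of the 6 libraries was left out (adjusted p from 0.0501 to 0.0939). Plxnb1 (0.80 ± 0.24, edgeR adjusted p = 0.0426) was lost without GCEPB+ replicate 2 (0.196) or 3 (0.0706), and also with GCEPB- replicate 1 left out (0.0922), 2 (0.0824) or 3 (0.155). Sema4d (1.64 ± 0.46, edgeR adjusted p = 0.0273) was lost without GCEPB+ replicate 2 (log2 difference 0.97, 0.211), GCEPB- replicate 1 (0.111) or GCEPB- replicate 3 (0.123). The lower gene, Plxna2 (-0.98 ± 0.24, edgeR adjusted p = 0.0116), was lost without GCEPB+ replicate 2 (0.0689) or GCEPB- replicate 1 (0.0612). With limma, Plxnb1 was lost on log2(FPKM + 1) (adjusted p = 0.0572) and log2(FPKM + 0.1) (0.0591), Sema4d on the former (0.0682) and Plxna2 on the latter (0.0782). With edgeR, Plxnb1 was lost with RLE factors (adjusted p = 0.0503), Sema4d on the compared groups alone (0.08) and Ephb1 without the filter (0.0519). Oligodendrocyte markers were at 309, 1190 and 810 CPM in the GCEPB+ libraries and 128 to 184 in GCEPB-, neuroblast markers at 296 to 493 and 860 to 1170, and astrocyte markers at 9330 to 15500 and 3700 to 4140. Markers of 3 further cell types also separated the groups: ependymal markers were at 28.1 to 65.1 CPM in GCEPB+ and 4.75 to 11.7 in GCEPB-, microglial markers at 35.4 to 83.5 and 9.05 to 28.2, and oligodendrocyte progenitor markers at 27.2 to 58.9 and 67.1 to 98. Gpr17 and Neu4 were at 0 in GCEPB+ and Aif1 in GCEPB-, no other gene of these 6 lists was at 0 in all 3 libraries of either group, and the part of these markers in the differences was not tested.

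GCPB+ and GPB+ cells, both EGFR- and told apart by CD133, gave the fewest calls. Plxna2, a plexin that binds class 6 semaphorins and pairs with neuropilins, was the only guidance gene past the threshold, higher in GCPB+ (1.63 ± 0.26, edgeR adjusted p = 0.0387), where 0.0245% of all tested genes were higher, 0.00613% lower and 0.0307% changed in either direction. Its levels were 6.3, 6.39 and 7.16 CPM in GCPB+ and 1.8, 2.16 and 2.43 in GPB+, without overlap, but the adjusted p was 0.0656 with the replicate number blocked and 0.0977 to 0.262 without any 1 of the 6 libraries. None was lower by edgeR, with 8 guidance genes lower and 1 higher at an unadjusted p under 0.05, while DESeq2 called 2 lower: Efna5 (-1.28, adjusted p = 0.000304) and Slit2 (-1.26, 0.0481). Groups did not overlap for 10 of the 54, against 12.8% of all tested genes. Oligodendrocyte markers ran from 624 to 1040 CPM in GPB+ and from 1430 to 2020 in GCPB+, and pericyte and mural markers from 6.71 to 12.1 and from 15.2 to 21.8. Higd1b was at 0 in GPB+, no other gene of these 2 lists was at 0 in all 3 libraries of either group, and their part was not tested.

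Between GPB+ cells and cortical astrocytes, which come from different regions, more guidance genes were higher in the V-SVZ. Slit2, Epha3, Efnb2, Sema6a and Plxnc1 were among the 12 higher genes, and Nrp2 and Plxna2 were the 2 lower ones, against 4.04% of all tested genes higher and 2.70% lower (6.74% in either direction). The libraries did not overlap for 22 of the 54, against 25.4% of all tested genes, and the median log2 difference was 0.50 over these genes and 0 over all genes. With limma on log2(FPKM + 1) the split was 10 higher and 4 lower among guidance genes, and among all genes the higher share of calls was 41.1%, where the count test gave 59.9%. Without CTX replicate 3 the count of higher genes was 7. Of the 14 calls, Efnb2, Sema6a, Plxnc1, Slit2 and Nrp2 passed under each of 13 alternative settings, and Epha3 and Plxna2 were past the threshold without any 1 of the 6 libraries. Ephb2 (2.53 ± 0.65, edgeR adjusted p = 0.0252) was lost without CTX replicate 1 (0.102), 2 (0.099) or 3 (0.0516) and without GPB+ replicate 2 (0.0564) or 3 (0.121). It was also lost with limma on log2(FPKM + 1) (adjusted p = 0.507) and log2(FPKM + 0.1) (0.161) and with edgeR on the compared groups alone (0.0823). Plxnb1 (0.95 ± 0.24, edgeR adjusted p = 0.0258) was lost without CTX replicate 1 (0.101) or 3 (0.123) and without GPB+ replicate 2 (0.136) or 3 (0.0633). Robo1 (1.41 ± 0.35, edgeR adjusted p = 0.0205) was lost without CTX replicate 1 (0.101) or 2 (0.058) and without GPB+ replicate 3 (0.0605). Sema5b (1.48 ± 0.33, edgeR adjusted p = 0.0113) was lost without CTX replicate 2 (0.0634) or 3 (0.0637) and without GPB+ replicate 1 (0.0524). Unc5a (5.45 ± 1.31, edgeR adjusted p = 0.018) was lost without CTX replicate 1 (0.0787), 2 (0.0741) or 3 (0.0529). The CTX libraries held 0, 1 and 4 counts of Unc5a, so its fitted value is no measure of the size. Ntn1 (2.72 ± 0.60, edgeR adjusted p = 0.0105) was lost without CTX replicate 1 (0.0583) or 3 (0.0577), and Plxnb2 (1.46 ± 0.32, edgeR adjusted p = 0.00949) without CTX replicate 3 (0.0573) or GPB+ replicate 2 (0.0576). On the compared groups alone edgeR also lost Plxnb1 (adjusted p = 0.0509) and Ntn1 (0.0508). Limma lost Epha3 (adjusted p = 0.0902) and Plxna2 (0.0543) on log2(FPKM + 1), and Robo1 (0.0527) on log2(FPKM + 0.1). Pericyte and mural markers ran from 31.1 to 55.4 CPM in CTX, with Higd1b and Ndufa4l2 at 0, and from 6.71 to 12.1 in GPB+, with Higd1b at 0. Most of the CTX sum was Rgs5 (47, 22.8 and 46.3 CPM, against 2.4, 3.38 and 6.1 in GPB+), and the list did not move as one. Tagln was higher in GPB+ (1.65, 1.66 and 1.19 CPM, against 0.644, 0.307 and 0.461), and Abcc9 overlapped (2.2, 2.74 and 3.05 against 2.29, 2.99 and 2.3). Oligodendrocyte progenitor markers ran from 186 to 274 CPM in CTX and from 43.1 to 91.6 in GPB+, with none at 0, and neuroblast markers from 3.53 to 14, with Dlx2, Dlx5 and Sp9 at 0, and from 28.7 to 47. Ependymal markers ran from 24.5 to 35.2 CPM in CTX, with Tmem212 and Pifo at 0, and from 53.2 to 74.5 in GPB+. Their part in these differences was not tested.

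**Figure D2:**
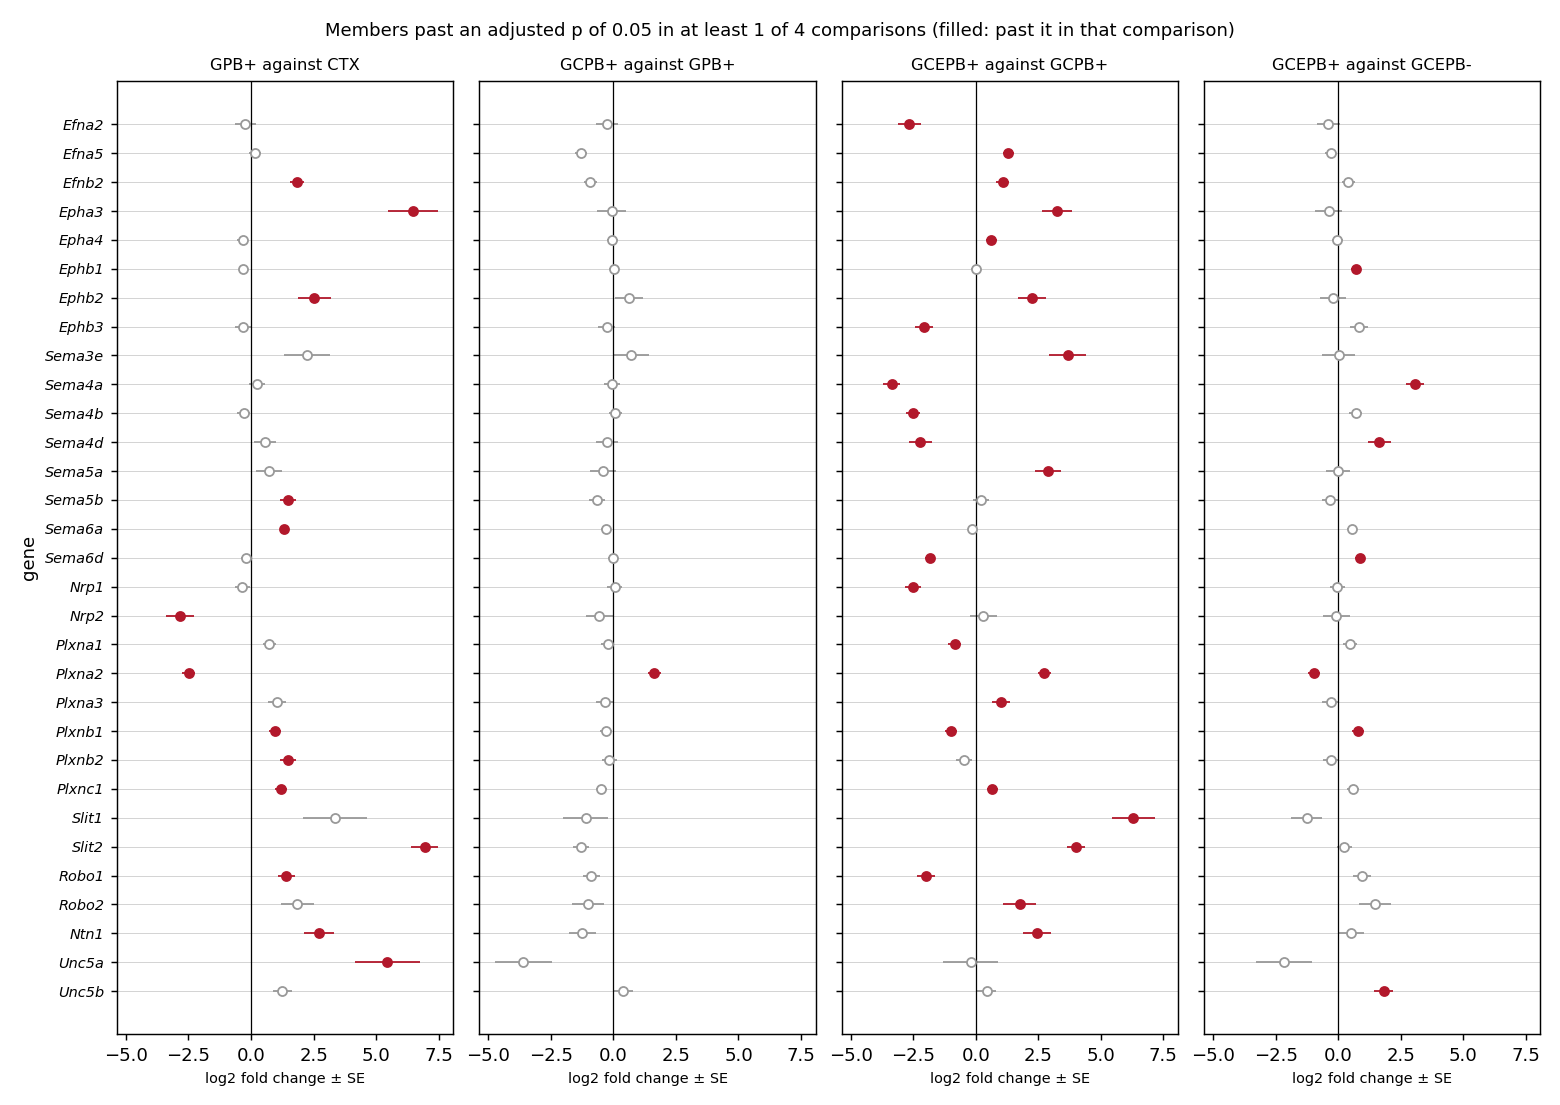
Log2 fold changes with their standard errors (x axis) of the 31 guidance genes called in at least 1 of 4 comparisons (rows), 1 panel per comparison, with filled points where the adjusted p was under 0.05. Filled points lie on both sides of 0 for GCEPB+ against GCPB+, and Plxna2 is filled in all 4 panels. The fitted values of Slit2 and Epha3 against CTX rest on 3 and 2 counts in the CTX libraries and are no measure of the size. This also holds for Unc5a, which had 0, 1 and 4 counts in the CTX libraries, and for Slit1 in GCEPB+ against GCPB+, with 2, 0 and 14 counts in GCPB+.

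When the 4 V-SVZ groups were set together against CTX, 20 guidance genes were higher and 13 lower, against 16.5% of all tested genes higher and 19.1% lower (35.5% in either direction). Here the log2 difference averages the 4 V-SVZ groups equally, so a call need not hold in each of them. Sema4a, called lower, averaged 301 CPM in CTX, 357 in GPB+ and 343 in GCPB+, but 33.4 in GCEPB+ and 3.89 in GCEPB-. Sema4d, also called lower, averaged 79 CPM in CTX, 116 in GPB+ and 97.5 in GCPB+, but 21.1 in GCEPB+ and 6.88 in GCEPB-. CTX libraries are the same as in the comparison with GPB+, so the counts are not independent of it. All 12 V-SVZ libraries lay on the same side of all 3 CTX libraries for 10 of the 54 genes, against 8.56% of all tested genes. Epha3, Ephb2, Slit2, Sema6a, Plxnb2 and Unc5b were above CTX in this way, and Nrp1, Nrp2, Sema6b and Unc5c were below it. With limma on log2(FPKM + 1) the higher share of calls among all genes was 57%, where the count test gave 46.3%, while 20 guidance genes were higher and 12 lower. Of the 33 calls, 27 passed under each of 21 alternative settings. Sema3b (4.34 ± 1.55, edgeR adjusted p = 0.0373), Unc5a (3.18 ± 1.13, edgeR adjusted p = 0.0373), Unc5d (edgeR adjusted p = 0.0282), Robo2 (1.61 ± 0.57, edgeR adjusted p = 0.0351), Ephb1 (-0.46 ± 0.15, edgeR adjusted p = 0.0239) and Sema4d (-1.15 ± 0.32, edgeR adjusted p = 0.00945) did not. The fitted values of Sema3b and Unc5a rest on 0, 1 and 6 and on 0, 1 and 4 counts in CTX and are no measure of the size. Each of Sema3b, Unc5a and Unc5d was lost without CTX replicate 1 (0.133, 0.138 and 0.0903), 2 (0.123, 0.116 and 0.0857) or 3 (0.0643, 0.0577 and 0.11), and the other libraries whose omission ended a call of Sema3b or Unc5a gave adjusted p from 0.0508 to 0.063. Those libraries were GPB+ replicate 2, GCPB+ replicates 2 and 3 and GCEPB- replicate 2 for Sema3b, and GPB+ replicate 2, GCPB+ replicate 3, GCEPB+ replicate 3 and GCEPB- replicate 3 for Unc5a. Robo2 was lost without CTX replicate 1 (0.168) or 2 (0.149), GCPB+ replicate 2 (0.0512) or 3 (0.0502), or GCEPB+ replicate 3 (0.0502). Ephb1, an EphB receptor, was lost without CTX replicate 1 (0.0757) or 2 (0.142), and Sema4d without CTX replicate 2 (0.0896). With limma, Ephb1 was lost on log2(FPKM + 1) (adjusted p = 0.102) and log2(FPKM + 0.1) (0.0964), and Unc5d on log2(FPKM + 1) (0.0953). Oligodendrocyte progenitor markers ran from 186 to 274 CPM in CTX and from 18.7 to 98 in the V-SVZ, with Gpr17 and Neu4 at 0 in GCEPB+. Pericyte and mural markers ran from 31.1 to 55.4 CPM in CTX, with Higd1b and Ndufa4l2 at 0, and from 2.77 to 21.8 in the V-SVZ, with Higd1b at 0 in GPB+, Kcnj8, Vtn, Higd1b and Ndufa4l2 in GCEPB+ and Kcnj8, Anpep and Ndufa4l2 in GCEPB-. Most of the CTX sum was Rgs5, at 22.8 to 47 CPM in CTX and 0.922 to 9.36 in the V-SVZ. Tagln overlapped, at 0.307 to 0.644 CPM in CTX and 0.0403 to 3.11 in the V-SVZ. Neuroblast markers ran from 3.53 to 14 CPM in CTX and from 17 to 1170 in the V-SVZ. The part of these markers in the differences was not tested.

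Promoters of genes with large changes between GCEPB+ and GCPB+ are printed because these genes carry that comparison. Slit1, whose fitted change was the largest of those called among guidance genes but rests on few GCPB+ counts, is named only. RefSeq sequences on GRCm38.p6, the assembly behind mm10, were matched by symbol for 59 of the 68 genes, each running from 250 bases before to 50 bases after a transcript start. Shown 5′ to 3′ on the gene's strand are the 2 largest rises and the 2 largest falls with an entry, Slit2 (chr5:47982905-47983204, plus strand), Sema3e (chr5:14025026-14025325, plus), Sema4a (chr3:88461133-88461432, minus, the first of 4 entries) and Efna2 (chr10:80179232-80179531, plus). Capitals mark matches of the searched motifs, which in these promoters were GC boxes (GGGCGG, or CCGCCC where the match is on the opposite strand), a TATA box (TATAAA) in Slit2 and an E-box (CACGTG) in Sema3e.
Slit2: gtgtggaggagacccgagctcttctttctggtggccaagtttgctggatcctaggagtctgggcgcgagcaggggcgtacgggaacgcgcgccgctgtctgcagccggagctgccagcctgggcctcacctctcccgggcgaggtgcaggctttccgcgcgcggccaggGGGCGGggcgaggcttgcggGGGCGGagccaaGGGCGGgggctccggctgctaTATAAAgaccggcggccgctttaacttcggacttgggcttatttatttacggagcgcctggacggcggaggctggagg
Sema3e: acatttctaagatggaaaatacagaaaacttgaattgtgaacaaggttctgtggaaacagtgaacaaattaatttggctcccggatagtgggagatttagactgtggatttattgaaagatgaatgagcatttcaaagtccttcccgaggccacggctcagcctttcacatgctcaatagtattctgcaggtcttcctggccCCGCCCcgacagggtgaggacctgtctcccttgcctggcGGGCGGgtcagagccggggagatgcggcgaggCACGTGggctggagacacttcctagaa
Sema4a: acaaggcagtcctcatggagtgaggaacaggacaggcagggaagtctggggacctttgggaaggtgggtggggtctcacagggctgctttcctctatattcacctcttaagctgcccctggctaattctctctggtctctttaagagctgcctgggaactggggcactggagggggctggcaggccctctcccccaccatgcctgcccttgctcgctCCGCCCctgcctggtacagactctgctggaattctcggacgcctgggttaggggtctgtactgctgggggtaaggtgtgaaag
Efna2: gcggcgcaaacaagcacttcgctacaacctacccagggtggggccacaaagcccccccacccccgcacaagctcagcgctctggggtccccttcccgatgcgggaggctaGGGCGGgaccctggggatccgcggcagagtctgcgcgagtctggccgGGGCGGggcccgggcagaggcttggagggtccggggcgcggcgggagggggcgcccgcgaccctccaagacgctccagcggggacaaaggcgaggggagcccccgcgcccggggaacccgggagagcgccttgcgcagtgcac
Slit2 holds 3 GC boxes and a TATA box, Sema3e 2 GC boxes and the E-box, Efna2 2 GC boxes and Sema4a 1 GC box. Motifs were searched on both strands over 59 guidance promoters and 17492 promoters of protein-coding genes, 1 a gene. A GC box was present in 72.9% of guidance promoters and 46.3% of all. It was present in 9 of 12 promoters of genes higher in GCEPB+ than in GCPB+ and in 7 of 9 of genes lower there, so both directions held it. Guidance promoters had a median GC content of 64.7%, and all promoters 56.3%. TATAAA was in 3.39% of guidance promoters and 13.3% of all, CAGCTG in 15.3% and 15.1%, and CACGTG in 6.78% and 7.9%. The CRE palindrome TGACGTCA was in 1.69% and 2.34%, and the E2F-type letters TTTGGCGC and TTTCCCGC, the second of which can share bases with a GC box, were in 0% of guidance promoters and in 0.657% and 1.46% of all. A match describes letters in a window and not a bound site.

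Among the ephrin ligands, Efna5, Efna2 and Efnb2 passed between neighbouring groups. Efna5 (chr17:62602957-62881317), a lipid-anchored ligand of EphA receptors, was at 60.6, 32.2 and 60.9 CPM in CTX, 53.5, 63.8 and 54.1 in GPB+, 20.6, 25.4 and 23.6 in GCPB+, and at 62.7, 51.7 and 57.3 in GCEPB+ and 77, 71.1 and 63.2 in GCEPB-. Its 3 GCPB+ libraries were the lowest of all 15. It rose from GCPB+ to GCEPB+ (1.31 ± 0.23, edgeR adjusted p = 0.000242), and between GPB+ and GCPB+ the log2 difference was -1.30 ± 0.23, edgeR adjusted p = 0.071 by the same test. Efna2 (chr10:80179482-80190010), whose promoter is printed above, was at 24.5, 19.2 and 22.1 CPM in CTX, 14.8, 26.5 and 15.5 in GPB+, 26.9, 15.2 and 5.73 in GCPB+, and at 3.23, 2.67 and 1.66 in GCEPB+ and 2.74, 4.09 and 3.14 in GCEPB-. Both EGFR+ groups lay below all 9 libraries of the other groups, and it fell from GCPB+ to GCEPB+ (-2.65 ± 0.47, edgeR adjusted p = 0.000286). Efnb2 (chr8:8617439-8660773), a transmembrane ligand of EphB receptors and of Epha4, was at 10.3, 7.6 and 14.4 CPM in CTX, 33.8, 39.7 and 42.4 in GPB+, 25.4, 13.3 and 22 in GCPB+, and at 45.4, 42.4 and 40.9 in GCEPB+ and 35.4, 29.5 and 32.8 in GCEPB-. GPB+ lay above CTX (1.84 ± 0.27, edgeR adjusted p = 0.000433) and GCEPB+ above GCPB+ (1.08 ± 0.26, edgeR adjusted p = 0.00378), each without overlap, while GCPB+ overlapped CTX.

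The remaining ephrins were not called by edgeR between neighbouring groups without the replicate block. Efnb1 ranged from 12.3 to 56.6 CPM over the 15 libraries with overlap between every pair of neighbouring groups, and Efnb3, a transmembrane ligand, was at 5.58, 3.99 and 1.55 CPM in CTX, 12.9, 8.21 and 8.44 in GPB+, 8.4, 9.34 and 8.89 in GCPB+, and at 18.6, 11.2 and 12.7 in GCEPB+ and 8, 8.06 and 4.79 in GCEPB-. CTX lay below GPB+ and below GCPB+ for Efnb3, and Efnb3 was higher in the 4 V-SVZ groups together than in CTX (1.39 ± 0.36, edgeR adjusted p = 0.00593). Efna4 reached 6.8 CPM and Efna1 4.95, and Efna3, which was not tested, reached 0.198 CPM.

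Of the EphA receptors, Epha3 had the largest change and Epha4 the highest FPKM in each group, between 7.39 in GCPB+ and 14.2 in GCEPB-. Epha3 (chr16:63545218-63864157), a receptor for ephrin-A ligands, was at 0, 0 and 0.0837 CPM in CTX, 1.2, 5.04 and 5.52 in GPB+, 0.884, 3.93 and 6.34 in GCPB+, and at 24, 36.7 and 45.9 in GCEPB+ and 42.3, 47 and 48.2 in GCEPB-. The 6 EGFR+ libraries were above the 9 others, and the 3 CTX libraries held 2 counts in all. It rose from GCPB+ to GCEPB+ (3.25 ± 0.60, edgeR adjusted p = 0.000402). Against CTX, GPB+ libraries had 98.7 times the level (95% exact counting interval 27 to 820) and GCEPB+ libraries 881 times (244 to 7280), intervals that cover counting error only. Epha4 (chr1:77367185-77515088), which binds ephrins of both classes, was at 93.6, 69.2 and 90.4 CPM in CTX, 65.5, 62.7 and 73.8 in GPB+, 75.4, 52 and 69.3 in GCPB+, and at 114, 95.3 and 93.4 in GCEPB+ and 139, 73.4 and 99.2 in GCEPB-. Group means ran from 65.5 ± 12.1 CPM (SD, n = 3) in GCPB+ to 104 ± 33.2 in GCEPB-. Epha5 ranged from 6.45 to 26.1 CPM and differed among the groups (edgeR adjusted p of any difference = 0.0181), although edgeR called no neighbouring pair and DESeq2 called GCEPB+ against GCPB+ (-0.76, adjusted p = 0.0497). The call of any difference was lost without GCPB+ replicate 2 (0.051) or GCEPB- replicate 1 (0.0697) or 3 (0.0687), and with limma on log2(FPKM + 1) (0.122) or log2(FPKM + 0.1) (0.124). Its locus overlaps the predicted gene Gm42163, so its counts are uncertain without strand. Epha7 ranged from 3.31 to 15.7 CPM with overlap in each comparison. Epha1, Epha2 and Epha10 were not tested and did not exceed 0.444, 0.155 and 0.201 CPM.

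EphB receptors split, with Ephb2 and Ephb3 moving in opposite directions. Ephb2 (chr4:136647541-136836012), a receptor for ephrin-B ligands, was at 0.358, 0.307 and 0.712 CPM in CTX, 0.852, 2.88 and 4.68 in GPB+, 5.71, 6.23 and 1.32 in GCPB+, and at 21.6, 23.4 and 17.3 in GCEPB+ and 25.9, 16.9 and 29.2 in GCEPB-. Its order was CTX below the EGFR- V-SVZ groups, which overlapped each other, and those below the EGFR+ groups, which also overlapped each other. It rose from GCPB+ to GCEPB+ (2.25 ± 0.56, edgeR adjusted p = 0.0048). Ephb3 (chr16:21204795-21223304), which binds the same class of ligand, was at 118, 90.1 and 46 CPM in CTX, 72.3, 93 and 40.1 in GPB+, 61.1, 66.7 and 42.7 in GCPB+, and at 10.6, 18.6 and 11.4 in GCEPB+ and 5.52, 7.92 and 9.42 in GCEPB-. Ephb3 fell from GCPB+ to GCEPB+ (-2.07 ± 0.37, edgeR adjusted p = 0.000326), and CTX, GPB+ and GCPB+ overlapped. Ephb1 (chr9:101922128-102354693) was at 55.4, 61.3 and 50.1 CPM in CTX, 35.7, 52.9 and 46.7 in GPB+, 52, 47.7 and 37 in GCPB+, and at 50.4, 44.4 and 43.8 in GCEPB+ and 27.4, 28.5 and 29 in GCEPB-. GCEPB- held its 3 lowest libraries. Ephb4, the partner of ephrin-B2 in blood vessels, stayed between 10.5 and 28.9 CPM, and Ephb6, which lacks kinase activity, between 0.926 and 14.4 CPM.

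**Figure D3:**
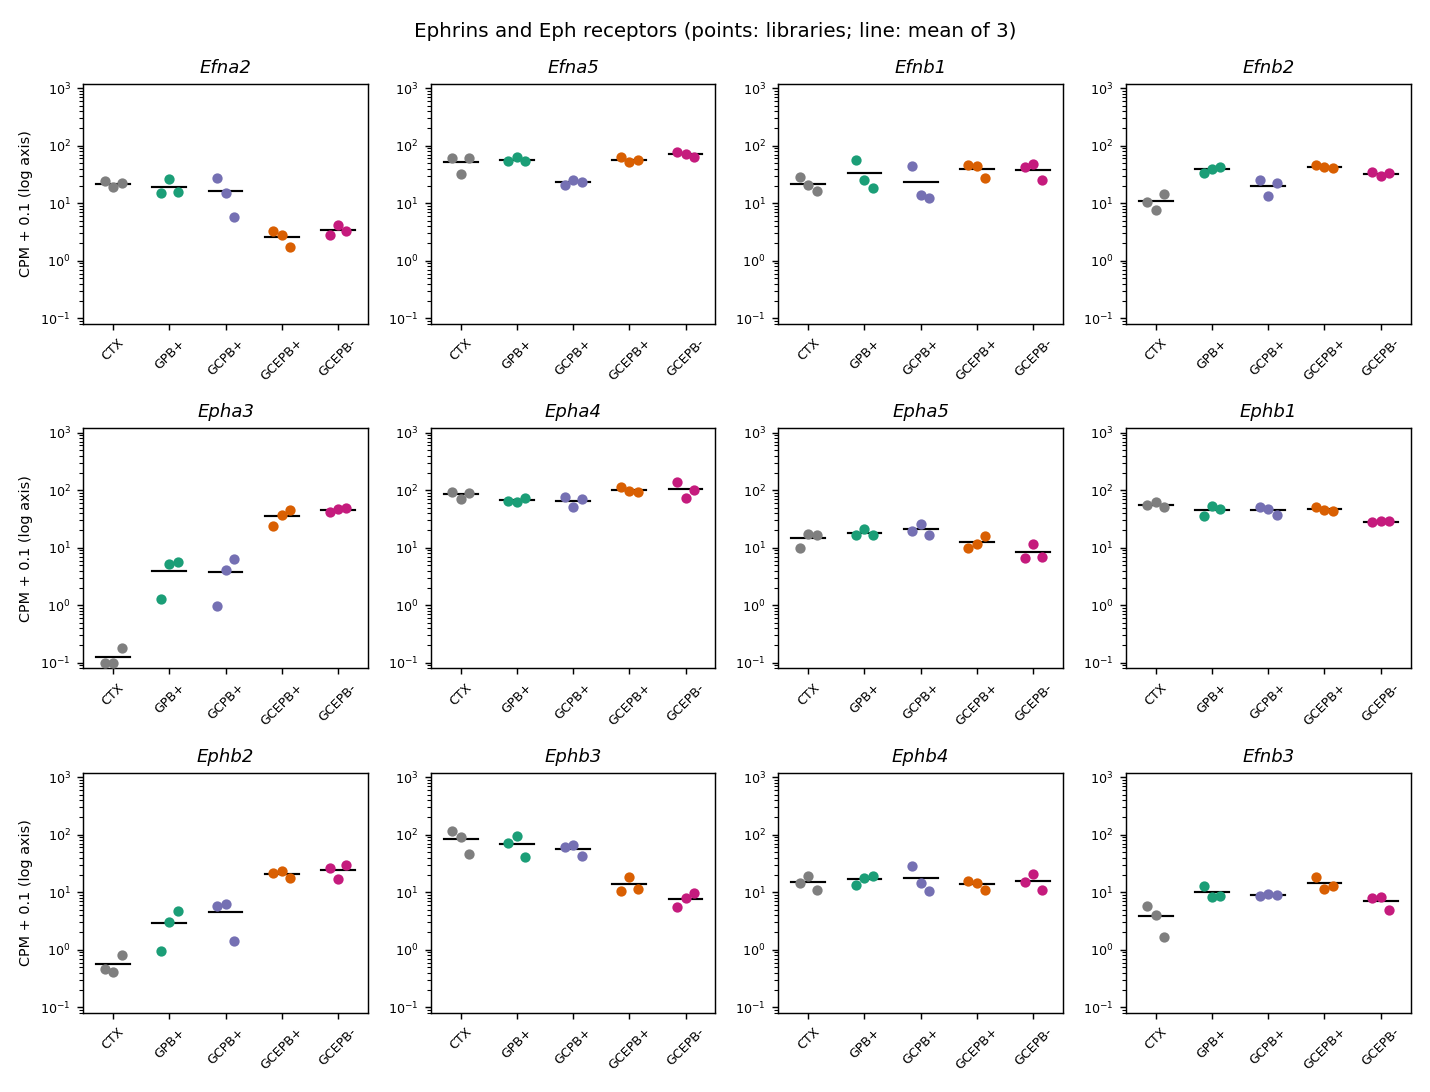
Levels of 12 ephrins and Eph receptors in each library (points, CPM + 0.1 on a log axis) by group, with a line at the mean of 3. Epha3 and Ephb2 are lowest in CTX, intermediate in GPB+ and GCPB+ and highest in the EGFR+ groups, Efna2 and Ephb3 step down, and the 3 GCPB+ points of Efna5, at 20.6 to 25.4 CPM, lie below the other groups.

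Among the semaphorins, the abundant class 4 members fell together between GCPB+ and GCEPB+. Sema4a (chr3:88435962-88461182), a transmembrane ligand of B- and D-type plexins, was at 392, 299 and 212 CPM in CTX, 354, 418 and 298 in GPB+, 407, 335 and 287 in GCPB+, and at 26.9, 42.6 and 30.7 in GCEPB+ and 6.72, 2.05 and 2.9 in GCEPB-. The 9 libraries of CTX, GPB+ and GCPB+ were all at 212 CPM or above, GCEPB+ lay between 26.9 and 42.6, and GCEPB- between 2.05 and 6.72. It fell from GCPB+ to GCEPB+ (-3.36 ± 0.35, edgeR adjusted p = 1.58e-06) and was higher in GCEPB+ than in GCEPB- without overlap. Sema4b (chr7:80186841-80226524), another transmembrane member, was at 200, 292 and 263 CPM in CTX, 237, 177 and 201 in GPB+, 234, 210 and 206 in GCPB+, and at 24.3, 51.4 and 38.8 in GCEPB+ and 16, 33.3 and 21.2 in GCEPB-. Its level fell at the step to GCEPB+ (-2.51 ± 0.28, edgeR adjusted p = 3.82e-06), and between the EGFR+ groups it overlapped (0.70 ± 0.27, edgeR adjusted p = 0.123). Sema4d (chr13:51701248-51793747), the known ligand of Plxnb1, was at 76.8, 102 and 58.2 CPM in CTX, 115, 152 and 79.1 in GPB+, 78.7, 121 and 92.5 in GCPB+, and at 9.45, 36.6 and 17.3 in GCEPB+ and 5.83, 11.4 and 3.46 in GCEPB-. It fell from GCPB+ to GCEPB+ (-2.21 ± 0.45, edgeR adjusted p = 0.00105), and within GCEPB+ its highest library, replicate 2, was also the one with the most oligodendrocyte markers, 1190 CPM against 309 and 810, whose part in this level was not tested.

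Less abundant class 4 members did not follow. Sema4c ranged from 0.368 to 17.5 CPM and Sema4g from 3.73 to 18.7, and neither passed the test of any difference (edgeR adjusted p = 0.0874 and 0.248). Sema4f was not tested and did not exceed 1.01 CPM.

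Semaphorins of classes 5 to 7 went several ways. Sema6d (chr2:124089969-124667789), a transmembrane ligand of Plxna1, was at 185, 250 and 188 CPM in CTX, 158, 182 and 201 in GPB+, 155, 196 and 189 in GCPB+, and at 40.2, 63.7 and 48 in GCEPB+ and 28.5, 24 and 29.1 in GCEPB-. Sema6d fell between GCPB+ and GCEPB+ (-1.83 ± 0.20, edgeR adjusted p = 2.78e-06), with GCEPB- lower again and without overlap. Sema5a (chr15:32244813-32696341), a transmembrane semaphorin with thrombospondin repeats, was at 0.787, 1.46 and 1.93 CPM in CTX, 0.902, 2.81 and 3.23 in GPB+, 1.07, 2.7 and 1.53 in GCPB+, and at 9.57, 16.9 and 11.6 in GCEPB+ and 9.55, 13.1 and 15.9 in GCEPB-, and rose from GCPB+ to GCEPB+ (2.87 ± 0.52, edgeR adjusted p = 0.000381). Sema5b (chr16:35541362-35664258), its relative, was at 79, 35.5 and 43.7 CPM in CTX, 201, 115 and 125 in GPB+, 143, 58.8 and 74 in GCPB+, and at 116, 96.4 and 104 in GCEPB+ and 117, 133 and 146 in GCEPB-. CTX lay below GPB+ without overlap, and the 4 V-SVZ groups overlapped each other apart from GCEPB+ and GCEPB-, whose libraries lay at 96.4 to 116 and 117 to 146 CPM (-0.32 ± 0.32, edgeR adjusted p = 0.624).

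Sema6a (chr18:47245254-47368870), a ligand of Plxna2 and Plxna4, was at 54.5, 56.5 and 52.8 CPM in CTX, 146, 135 and 129 in GPB+, 126, 97.1 and 111 in GCPB+, and at 86.6, 127 and 88.9 in GCEPB+ and 77.2, 65.2 and 65.2 in GCEPB-. Every V-SVZ library was above the 52.8 to 56.5 CPM of CTX, and GPB+ was higher than CTX (1.32 ± 0.18, edgeR adjusted p = 0.000218). Sema6b and Sema7a, the lipid-anchored ligand of Plxnc1, were rare and highest in CTX. Sema7a libraries of CTX and GPB+ overlapped. Sema6b averaged 4.33 CPM in CTX and 0.615 over the V-SVZ libraries (-2.87 ± 0.64, edgeR adjusted p = 0.00204), and Sema7a 4.53 and 1.17 (-2.08 ± 0.51, edgeR adjusted p = 0.00404). Sema6c did not exceed 2.76 CPM and did not pass any test.

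Secreted class 3 semaphorins were rare, with their 7 genes summing to between 0.397 ± 0.191 FPKM in CTX and 3.63 ± 0.297 in GCEPB+. Sema3e (chr5:14025276-14256689), which binds Plxnd1 without a neuropilin, was at 0, 0.23 and 0.167 CPM in CTX, 0.0501, 0.288 and 1.59 in GPB+, 1.55, 0.574 and 1.05 in GCPB+, and at 14.5, 13.7 and 13.4 in GCEPB+ and 16.2, 11.9 and 12.9 in GCEPB-. It rose from GCPB+ to GCEPB+ (3.67 ± 0.74, edgeR adjusted p = 0.000898), and both EGFR+ groups lay above all others and overlapped each other. Sema3a, the ligand of Nrp1 and A-type plexins, reached 5.07 CPM, and Sema3b, whose locus overlaps Lsmem2, reached 5.17. Sema3c, Sema3d, Sema3f and Sema3g were not tested and did not exceed 0.991, 3.07, 0.726 and 0.335 CPM.

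The 2 neuropilins, co-receptors of class 3 semaphorins and of VEGF, were both lower in the 4 V-SVZ groups together than in CTX (-1.55 ± 0.22, edgeR adjusted p = 2.68e-05 for Nrp1 and -3.09 ± 0.36, edgeR adjusted p = 4.52e-06 for Nrp2). Nrp1 (chr8:128359073-128505475) was at 119, 112 and 118 CPM in CTX, 109, 83.7 and 81.9 in GPB+, 93.5, 94 and 98.9 in GCPB+, and at 11.6, 11.6 and 27.1 in GCEPB+ and 11.9, 24.7 and 15.1 in GCEPB-. All 6 EGFR+ libraries were at 27.1 CPM or below and all others at 81.9 or above, and it fell from GCPB+ to GCEPB+ (-2.51 ± 0.32, edgeR adjusted p = 1.13e-05). Nrp2 (chr1:62703317-62818692) was at 9.44, 7.91 and 9.84 CPM in CTX, 0.751, 1.73 and 1.33 in GPB+, 0.884, 0.82 and 0.848 in GCPB+, and at 0.566, 1.02 and 1.6 in GCEPB+ and 0.53, 1.52 and 1.33 in GCEPB-. It separated the 3 CTX libraries from all 12 of the V-SVZ, where it did not exceed 1.73 CPM, and GPB+ was lower than CTX (-2.84 ± 0.56, edgeR adjusted p = 0.00513).

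Among the plexins, Plxna2 was called by edgeR in every neighbouring comparison tested, though not equally firmly. The call between GCPB+ and GPB+ was kept under 3 of 13 alternative settings, and that between GCEPB+ and GCEPB- under 10 of 13. Plxna2 (chr1:194619829-194816868) was at 8.22, 14.6 and 13.1 CPM in CTX, 1.8, 2.16 and 2.43 in GPB+, 6.3, 6.39 and 7.16 in GCPB+, and at 51.9, 34.7 and 46.4 in GCEPB+ and 97.5, 72.8 and 91.3 in GCEPB-. It was lower in GPB+ than in CTX (-2.49 ± 0.27, edgeR adjusted p = 2.12e-05), and both EGFR+ groups lay above CTX. From GCPB+ to GCEPB+ it rose (2.74 ± 0.26, edgeR adjusted p = 5.88e-07), and GCEPB-, at 72.8 to 97.5 CPM, lay above GCEPB+ without overlap. In that comparison neuroblast markers were 296 to 493 against 17 to 46.4 CPM, and their part in this change was not tested. Plxnb1 (chr9:109095436-109119915), the receptor of Sema4d and the plexin of highest FPKM in every group but GCEPB-, where Plxnb2 was higher, was at 267, 367 and 237 CPM in CTX, 372, 743 and 563 in GPB+, 377, 519 and 479 in GCPB+, and at 190, 288 and 215 in GCEPB+ and 142, 142 and 114 in GCEPB-. It fell from GCPB+ to GCEPB+ (-0.99 ± 0.24, edgeR adjusted p = 0.00426), with GCEPB- lowest.

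Plxnb2, a further receptor of class 4 semaphorins, and Plxnc1, the receptor of Sema7a, were higher in the V-SVZ. Plxnb2 (chr15:89155546-89180788) was at 62.6, 66.2 and 36.6 CPM in CTX, 80.6, 238 and 136 in GPB+, 98.6, 156 and 153 in GCPB+, and at 89.1, 109 and 97.5 in GCEPB+ and 119, 115 and 129 in GCEPB-, with all V-SVZ libraries above the 36.6 to 66.2 CPM of CTX (1.18 ± 0.27, edgeR adjusted p = 0.00211 for the 4 groups together). Plxna3 (chrX:74329066-74344689), a partner of neuropilins, was at 11.7, 24 and 16.8 CPM in CTX, 17.4, 44.1 and 46.3 in GPB+, 18.5, 27.6 and 38.1 in GCPB+, and at 52.2, 62.7 and 56.6 in GCEPB+ and 71, 82.1 and 56.6 in GCEPB-. All 6 EGFR+ libraries were above the 9 others, and it was higher in the V-SVZ than in CTX (1.36 ± 0.30, edgeR adjusted p = 0.00194). Plxnc1 (chr10:94790866-94944578) was at 19.2, 17.2 and 17.6 CPM in CTX, 41, 39.2 and 41.7 in GPB+, 18.6, 34.6 and 34.5 in GCPB+, and at 51.8, 49.6 and 37.8 in GCEPB+ and 33.6, 27.6 and 30.4 in GCEPB-, and GPB+ was higher than CTX (1.18 ± 0.24, edgeR adjusted p = 0.00557), although GCPB+ replicate 1, at 18.6 CPM, lay within CTX. Plxna1 (chr6:89316314-89362613), the receptor of Sema6d, whose locus overlaps Gm40415, was at 21.7, 17.4 and 15.3 CPM in CTX, 27.7, 39.9 and 22.7 in GPB+, 22.3, 31.8 and 22.9 in GCPB+, and at 15.9, 16.3 and 10.8 in GCEPB+ and 9.72, 9.84 and 11.4 in GCEPB-, with GCPB+ above GCEPB+ without overlap. Plxna4 ranged from 0.25 to 21.6 CPM, Plxnb3 from 0.36 to 7.21 and Plxnd1, the receptor of Sema3e, from 0.594 to 7.22. Plxnd1 passed no test.

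**Figure D4:**
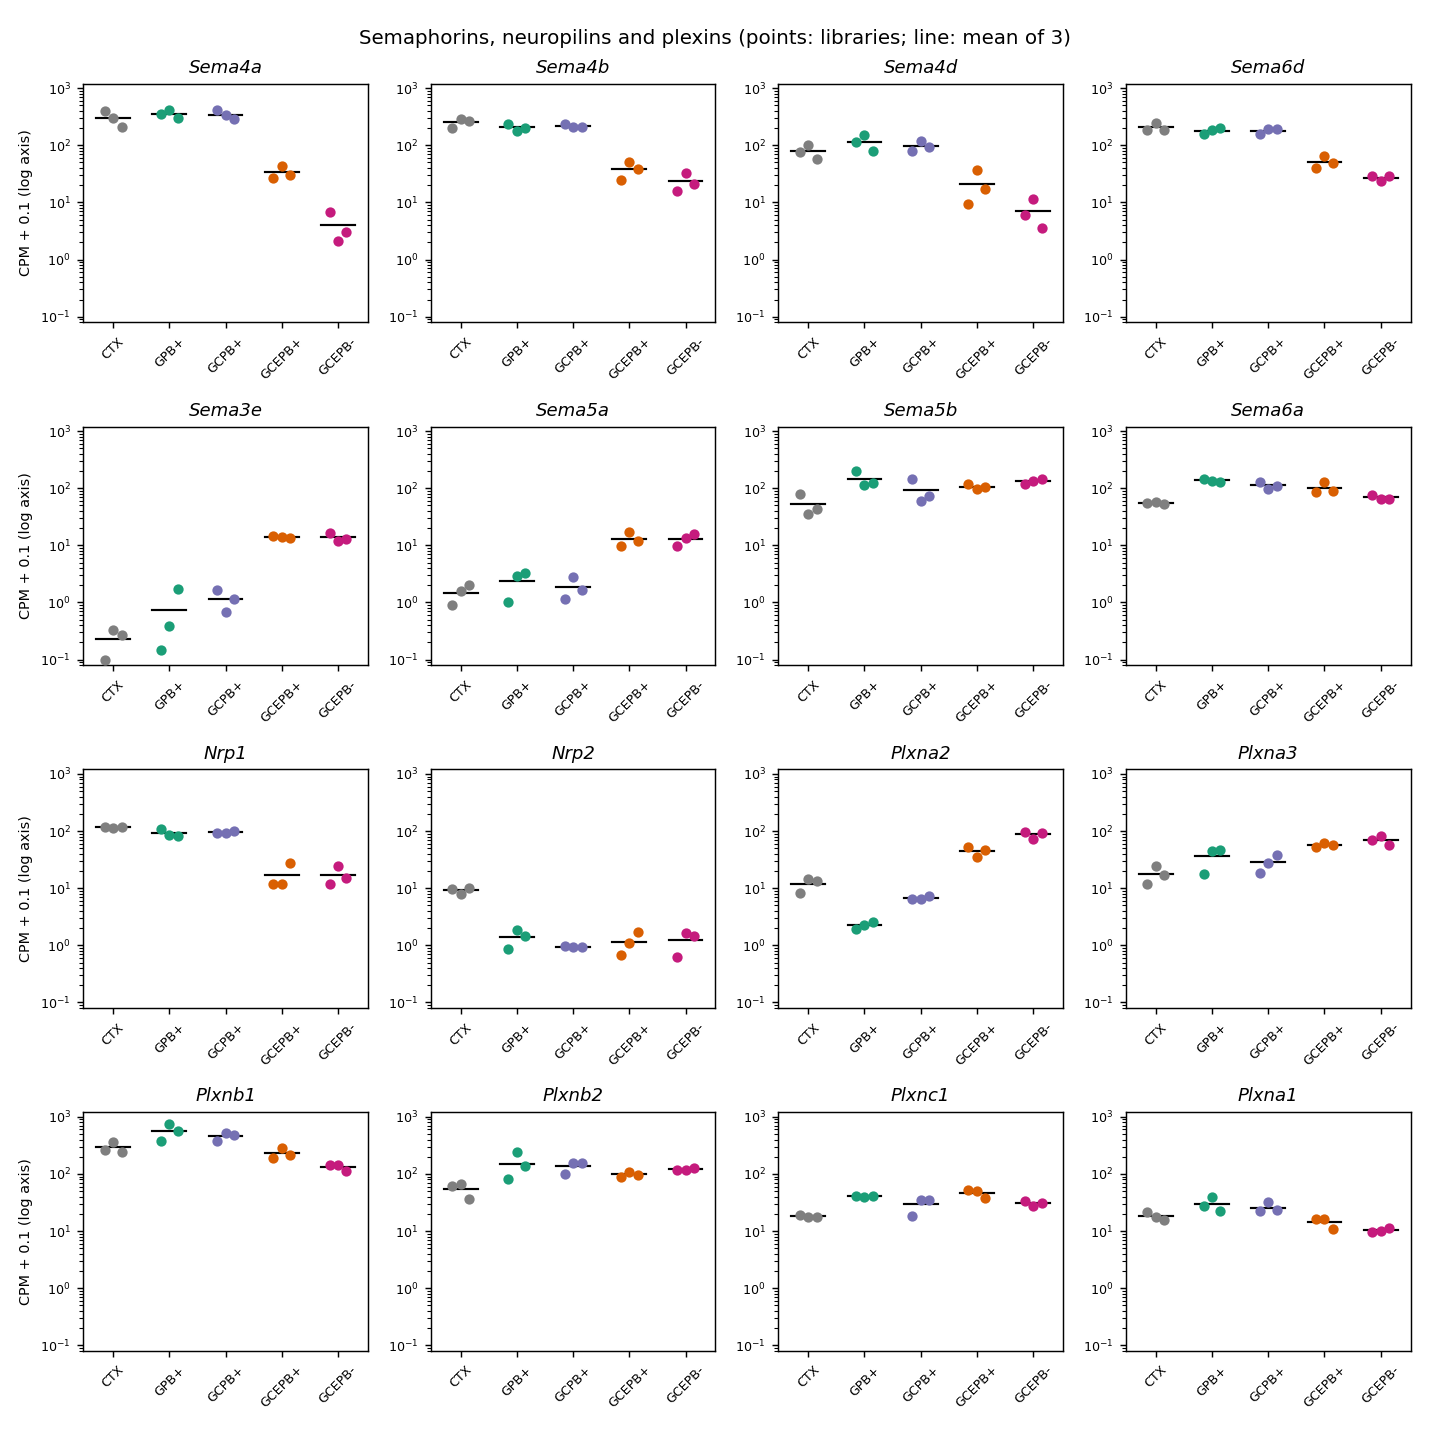
Levels of 16 semaphorins, neuropilins and plexins in each library (points, CPM + 0.1 on a log axis) by group, with a line at the mean of 3. Sema4a, Sema4b, Sema4d, Sema6d and Nrp1 drop between GCPB+ and GCEPB+, Plxna2 dips in GPB+ at 1.8 to 2.43 CPM and climbs to 72.8 to 97.5 in GCEPB-, and Nrp2 is high in CTX alone.

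Slits, the repellents that bind Robo receptors, were near 0 in cortical astrocytes, with 2 counts of Slit1 and 3 of Slit2 in the 3 CTX libraries. Slit1 (chr19:41600257-41743856) was at 0.143, 0 and 0 CPM in CTX, 0, 0.792 and 0.663 in GPB+, 0.0737, 0 and 0.475 in GCPB+, and at 19.1, 18.8 and 14.6 in GCEPB+ and 54.4, 40.5 and 30.7 in GCEPB-. The 9 libraries of CTX, GPB+ and GCPB+ were below 1 CPM and the 6 EGFR+ libraries at 14.6 or above, and it rose from GCPB+ to GCEPB+ (6.30 ± 0.85, edgeR adjusted p = 2.17e-05). The GCPB+ libraries held 2, 0 and 14 counts of Slit1, so this fitted value is no measure of the size. GCEPB- libraries lay above those of GCEPB+ without overlap, but the difference did not pass (-1.26 ± 0.63, edgeR adjusted p = 0.24), while edgeR on those 6 libraries alone gave an adjusted p of 0.0122. Slit2 (chr5:47983155-48307736) was at 0.0715, 0 and 0.0837 CPM in CTX, 8.27, 6.98 and 8.39 in GPB+, 4.94, 1.72 and 2.81 in GCPB+, and at 59.7, 54.9 and 39.8 in GCEPB+ and 41, 40.4 and 48.6 in GCEPB-. It rose from GCPB+ to GCEPB+ (4.0 ± 0.35, edgeR adjusted p = 3.74e-07), and GCEPB+ and GCEPB- overlapped. Unlike Slit1 it was also present in each GPB+ library, at 136 times the CTX level (95% exact counting interval 46.2 to 661). GPB+ lay above GCPB+ without overlap, but edgeR did not call the difference (-1.29 ± 0.33, edgeR adjusted p = 0.472). Slit3 was not tested and did not exceed 1.37 CPM.

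Of the Robo receptors, Robo1 fell and Robo2 was higher at the step at which the slits rose. Robo1 (chr16:72663149-73046100) was at 13.1, 23 and 26.8 CPM in CTX, 56.3, 50.6 and 60.5 in GPB+, 20.9, 31.1 and 38.8 in GCPB+, and at 5.25, 9.56 and 8.07 in GCEPB+ and 2.25, 3.96 and 5.55 in GCEPB-. It fell from GCPB+ to GCEPB+ (-1.99 ± 0.36, edgeR adjusted p = 0.000326), and all 6 EGFR+ libraries were below 10 CPM. Robo2 (chr16:73892306-74410912) was at 0.93, 1.77 and 5.23 CPM in CTX, 11.4, 8.07 and 9.85 in GPB+, 0.848, 7.79 and 6.17 in GCPB+, and at 9.74, 19.4 and 20.6 in GCEPB+ and 7.51, 4.69 and 5.51 in GCEPB-. Its GCPB+ libraries spread from 0.848 to 7.79 CPM, GCEPB+ had the highest group mean, and the difference between them was 1.76 ± 0.65, edgeR adjusted p = 0.0432, a call lost without GCPB+ replicate 1 (0.109) or 3 (0.0667) or GCEPB+ replicate 2 (0.0971) or 3 (0.114). Robo4, known from endothelial cells, did not exceed 1.65 CPM, reached in GCEPB+ replicate 2, which also had the highest sum of endothelial markers (40.6 CPM, against 0.295 to 28.1 in the other 14 libraries). The other libraries did not follow that order. GPB+ replicate 1 had Robo4 at 1.35 CPM with endothelial markers at 0.351, and CTX replicate 3 had Robo4 at 0.0419 with markers at 28.1. Robo3 had 1 count in all libraries. Endothelial markers had Cdh5 at 0 in GPB+ and Emcn at 0 in GCEPB-, and their part in the Robo4 level was not tested.

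Netrins and Unc5 receptors were expressed at low levels, with no library above 21.5 CPM for any of the 8 genes. Ntn1 (chr11:68209364-68386826), the secreted ligand netrin-1, was at 0.501, 2.38 and 0.419 CPM in CTX, 3.36, 7.2 and 10.6 in GPB+, 2.51, 2.05 and 4.27 in GCPB+, and at 19.8, 16.3 and 11.9 in GCEPB+ and 13, 10 and 10.5 in GCEPB-. It rose from GCPB+ to GCEPB+ (2.43 ± 0.56, edgeR adjusted p = 0.00278), and the EGFR+ groups overlapped. Ntn3 (chr17:24203843-24209387) was at 11.4, 10.3 and 11.2 CPM in CTX, 15, 6.41 and 6.94 in GPB+, 3.87, 4.26 and 3.8 in GCPB+, and at 5.17, 3.74 and 3.62 in GCEPB+ and 1.06, 5.08 and 2.54 in GCEPB-, and was lower in the 4 V-SVZ groups together than in CTX (-1.25 ± 0.34, edgeR adjusted p = 0.00878). Its locus overlaps Tbc1d24, and without strand the reads of the 2 genes cannot be told apart. Ntn4 and Ntn5 did not exceed 0.796 and 0.0339 CPM.

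Unc5 receptors, which mediate repulsion by netrins, each had a pattern of their own. Unc5b (chr10:60762595-60831581) was at 2.65, 2.3 and 2.43 CPM in CTX, 5.81, 6.26 and 5.57 in GPB+, 4.57, 13.1 and 5.77 in GCPB+, and at 9.78, 9.66 and 12.3 in GCEPB+ and 2.83, 3.24 and 2.94 in GCEPB-. GCEPB+ lay above GCEPB- without overlap (1.82 ± 0.39, edgeR adjusted p = 0.00515), and the 3 CTX libraries were the lowest of all. Unc5c (chr3:141465564-141834924) was at 13.1, 18.7 and 21.5 CPM in CTX, 6.81, 3.46 and 11.7 in GPB+, 3.28, 7.21 and 10.5 in GCPB+, and at 2.79, 3.59 and 5.43 in GCEPB+ and 2.92, 5.02 and 2.54 in GCEPB-, highest in CTX and lower in the 4 V-SVZ groups together (-1.79 ± 0.34, edgeR adjusted p = 0.000586). Unc5a, whose locus overlaps Hk3, was at 5.31, 4.39 and 2.83 CPM in GPB+ and did not exceed 1.93 in any other group. Unc5d had 3 counts in all of CTX, and its pooled level was 15 times that of CTX in GPB+ (95% exact counting interval 4.85 to 75.3) and 45 times in GCEPB- (15.1 to 220). These intervals cover counting error only and not the spread between libraries. The GPB+ libraries held 20, 0 and 30 counts of Unc5d and overlapped CTX (edgeR adjusted p = 0.179). Unc5d did not pass the test of any difference (edgeR adjusted p = 0.0575), and no library exceeded 4.09 CPM.

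**Figure D5:**
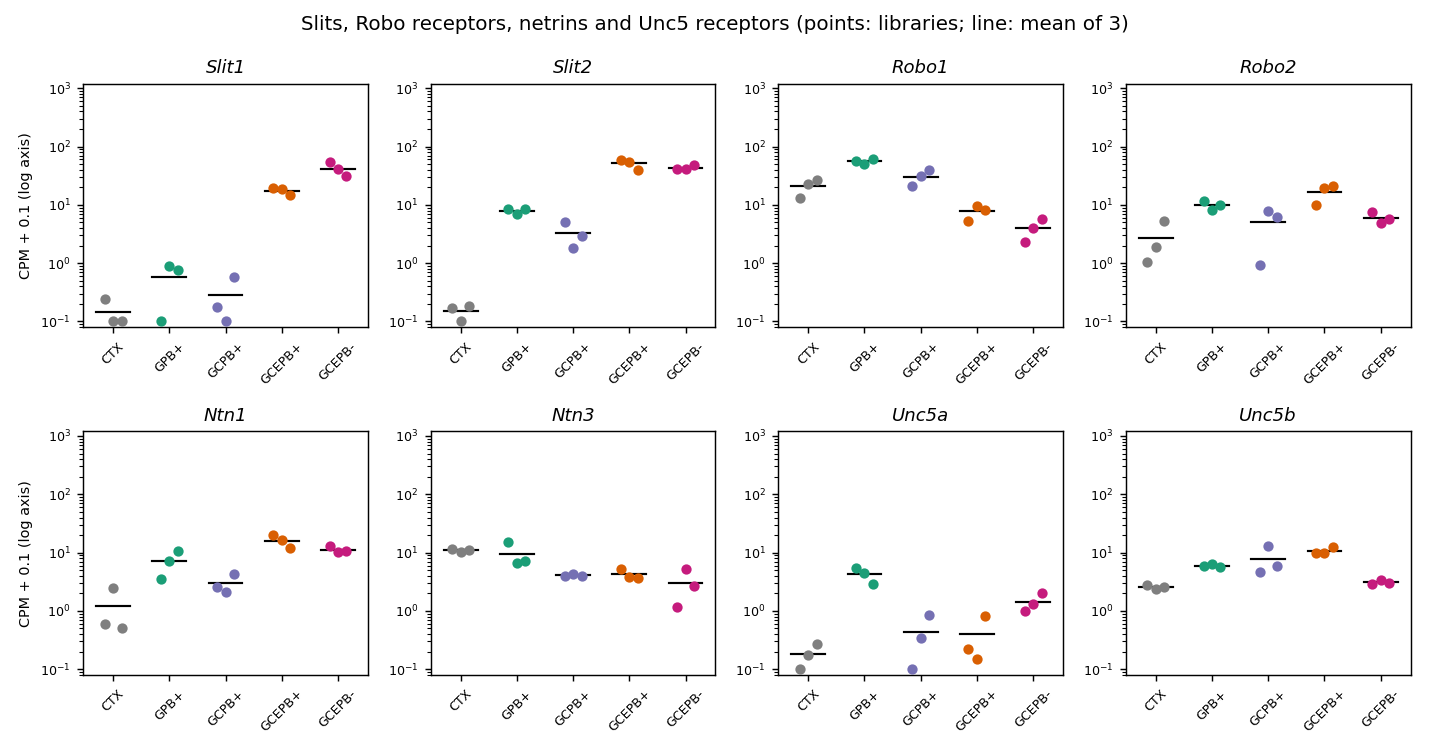
Levels of 8 slits, Robo receptors, netrins and Unc5 receptors in each library (points, CPM + 0.1 on a log axis) by group, with a line at the mean of 3. Slit1 and Slit2 rise from GCPB+ to GCEPB+ while Robo1 falls, and Unc5a is highest in GPB+ at 2.83 to 5.31 CPM.

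Co-receptors, partner ligands and cytoplasmic effectors of these systems formed a separate list of 54 genes, all in the count table, of which 51 were tested and 35 differed among the 5 groups, against 54.8% of all tested genes. From GCPB+ to GCEPB+, 12 were higher and 15 lower, against 18.1% and 18.0% of all tested genes. Higher genes included Draxin, a secreted netrin-binding protein, at 29.6 ± 11.2 CPM (SD, n = 3) in GCEPB+ and 1.47 ± 0.561 in GCPB+ (4.33 ± 0.49, edgeR adjusted p = 3.9e-06), Dscaml1, a Dscam relative (3.80 ± 0.83, edgeR adjusted p = 0.00171), Ntng2, netrin-G2 (3.63 ± 0.92, edgeR adjusted p = 0.00525), and Dpysl3, a cytoplasmic mediator of semaphorin signals (3.23 ± 0.28, edgeR adjusted p = 3e-07). Lower genes included Ngef, an exchange factor that acts below Epha4, at 48.2 ± 13.8 CPM and 427 ± 238 (-3.14 ± 0.46, edgeR adjusted p = 4.74e-05), Plxdc2 (-3.05 ± 0.43, edgeR adjusted p = 3.16e-05), the small GTPase Rnd2 (-2.58 ± 0.30, edgeR adjusted p = 5.55e-06) and Kalrn, an exchange factor that acts below EphB receptors (-2.43 ± 0.32, edgeR adjusted p = 1.98e-05).

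Between GCEPB+ and GCEPB-, 7 partner genes were higher and 3 lower, against 9.28% and 1.85% of all tested genes. Vav3, an exchange factor that acts below Eph receptors (2.61 ± 0.54, edgeR adjusted p = 0.00389), Srgap1, a GTPase regulator that binds Robo1 (2.18 ± 0.59, edgeR adjusted p = 0.0236), Flrt1, which binds Unc5 receptors (1.80 ± 0.23, edgeR adjusted p = 4.77e-05), and Plxdc2 (1.65 ± 0.43, edgeR adjusted p = 0.0195) were higher, and the 3 lower genes were Dpysl3 (-1.75 ± 0.26, edgeR adjusted p = 0.000202), Crmp1 (-1.66 ± 0.46, edgeR adjusted p = 0.0256) and Draxin (-1.59 ± 0.42, edgeR adjusted p = 0.0196). Srgap1 was lost without GCEPB+ replicate 2 (0.0662) or 3 (0.113) or GCEPB- replicate 1 (0.0954) or 2 (0.0844), and Plxdc2 without GCEPB+ replicate 3 (0.174) or GCEPB- replicate 1 (0.06) or 2 (0.0882). Crmp1, a relative of Dpysl3, was lost without GCEPB+ replicate 2 (0.121) or 3 (0.0981) or GCEPB- replicate 1 (0.0688) or 2 (0.088), and Draxin without GCEPB+ replicate 3 (0.0916) or GCEPB- replicate 2 (0.0624). Vav3 (edgeR adjusted p = 0.0544), Srgap1 (0.131) and Plxdc2 (0.114) were lost on the compared groups alone. Limma lost Srgap1 and Plxdc2 on log2(FPKM + 1) (adjusted p = 0.289 and 0.265) and on log2(FPKM + 0.1) (0.112 and 0.101). Between GCPB+ and GPB+ edgeR and DESeq2 each called 0 partner genes, with 1 higher and 4 lower at an unadjusted edgeR p under 0.05. Against CTX, GPB+ had 5 higher and 2 lower, against 4.04% and 2.70% of all tested genes. Chl1, an L1-type adhesion molecule that binds Nrp1, was at 41.9 ± 20.8 CPM in CTX and 0.118 ± 0.204 in GPB+ (-8.21 ± 1.34, edgeR adjusted p = 0.00115). Its GPB+ level lay near the floor of 0.102 to 0.246 CPM, so this fitted value is no measure of the size. Rnd2 was the other lower gene (-1.12 ± 0.29, edgeR adjusted p = 0.0244), lost without CTX replicate 2 (0.0757) or 3 (0.0926) or GPB+ replicate 2 (0.0921) or 3 (0.108). Dpysl5 (5.98 ± 1.19, edgeR adjusted p = 0.00527), Draxin (2.69 ± 0.52, edgeR adjusted p = 0.00409), Dpysl3 (1.52 ± 0.28, edgeR adjusted p = 0.00271) and Flrt2 (1.40 ± 0.30, edgeR adjusted p = 0.00834) led the higher ones. Of these, Dpysl5 (adjusted p = 0.0824) and Draxin (0.236) were lost with limma on log2(FPKM + 1). For the 4 V-SVZ groups together against CTX the counts were 11 higher and 18 lower, against 16.5% and 19.1% of all tested genes, led by Dpysl5 (6.21 ± 1.13, edgeR adjusted p = 0.000354) and Dscaml1 (4.08 ± 0.89, edgeR adjusted p = 0.00162) among the higher and Chl1 (-6.11 ± 0.66, edgeR adjusted p = 1.95e-06) and Rnd2 (-2.56 ± 0.20, edgeR adjusted p = 5.15e-08) among the lower genes.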

How the data were processed

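Bulk RNA-seq was measured in 15 libraries, 3 for each of 5 sorted populations. The authors' deposited count table held whole-number counts per gene, and the authors' deposited FPKM table held length-scaled levels. Per the submitters' processing notes, cutadapt, TopHat2 2.1, Cufflinks and HTSeq were used with mm10. The tool behind each file, the annotation, the strand setting and the handling of multi-mapping are not given in the sources used here. The preparation kit does not mark strand, so overlapping genes cannot be separated.

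Counts were fitted in R 4.3.3 with edgeR 4.0.16 (quasi-likelihood, TMM factors from 0.8253 to 1.219, filterByExpr) over all 15 libraries. Adjusted p-values are Benjamini-Hochberg over the 16302 genes tested, with a threshold of 0.05. The standard error is the size of the log2 fold change divided by the square root of F. Rows that name no gene (28) held 0.184 to 0.323% of counts and were left out. Gene positions come from the deposited table on mm10. Promoters come from RefSeq. Counting intervals are exact and cover counting error only, since no molecular identifiers were used. The fit was tested on simulated data.

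Alternatives were DESeq2 1.42.0, its size factors (RLE), no filter, limma 3.58.1 on log2(FPKM + 1) or log2(FPKM + 0.1), a fit on the compared groups alone, a replicate block and leaving out each replicate. The labels do not say whether same-numbered libraries are pairs, and the reported fit has no replicate block. Deviations from group means of same-numbered libraries correlated at 0.234, 0.15 and 0.234 for GCEPB+ with GCPB+. For GCPB+ with GPB+ the values were 0.191, 0.176 and 0.261. Without the values of differently numbered libraries these do not settle whether they are pairs. Replicates of a group differed by 26.7 to 104 chi-square units per gene, above sampling noise. The guidance genes, partner genes and marker lists were chosen with earlier results of these data known. Any guidance gene could be named. Values in every library were given to those past the threshold in a comparison with a mean of at least 5 CPM in the higher group, among the 8 largest changes a direction, and to those above 100 CPM. Up to 4 partner genes a direction were named by size of change.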

Additional observations from a re-analysis of the deposited data

How the results depend on the processing

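Of the calls reported for guidance genes, none changed direction under the alternatives run. Among guidance genes lower in GCEPB+ than in GCEPB- (1 as reported), the count was 3 with the compared groups only, 2 with limma on log2(FPKM + 1) and 0 on log2(FPKM + 0.1). The gene higher in GCPB+ than in GPB+ (1 as reported) became 0 with the replicate block, with the compared groups only and with limma at either pseudocount. Those lower there (0 as reported by edgeR, with 8 at an unadjusted p under 0.05) were 1 without the filter, 2 with DESeq2 and 1 with limma on log2(FPKM + 1). Those lower in GPB+ than in CTX (2 as reported) were 4 with limma on log2(FPKM + 1). The cause was not tested.

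Leaving out 1 replicate gave 3 to 7 higher and 0 to 1 lower for GCEPB+ against GCEPB-, 10 to 13 and 9 to 11 for GCEPB+ against GCPB+, 0 to 0 and 0 to 0 for GCPB+ against GPB+, 7 to 15 and 2 to 2 for GPB+ against CTX, 16 to 21 and 11 to 14 for the 4 V-SVZ groups against CTX, and 35 to 41 for any difference. Correlations of same-numbered libraries were 0.0242, 0.122 and 0.134 for GCEPB+ with GCEPB- and 0.0792, 0.0796 and 0.222 for GPB+ with CTX. Whether any same-numbered libraries were pairs is not known. With the replicate block 9 and 16 guidance genes were called in these comparisons, against 7 and 14. With 3 libraries a group, the depth limits what can be seen for genes near the floor of 0.102 to 0.246 CPM.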
